A study of Homo sapiens with 4 samples.

Results

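EGR1, EGR2 and EGR3, the corepressors NAB1 and NAB2, the serum response factor SRF and its partners ELK1, ELK3 and ELK4 were followed in AC16 cells through the first 360 min in doxorubicin. The 9 genes were taken by name from 57891 genes with annotated transcripts, and the counts of each gene's annotated transcripts (GENCODE 29) were summed and scaled to a common library size (CPM). AC16 is an established human cell line that the labels call cardiomyocyte, and the RNA was poly(A)-selected and sequenced. There was 1 library for each time: untreated cells at 0 min, and cells given 10 nM doxorubicin for 10, 30 or 360 min. Per the labels' protocols, cells due to receive the drug lost their serum-containing medium, were rinsed and got the drug in fresh medium without serum. Whether the 0 min cells had the same change of medium is not stated, so the drug and the change of medium cannot be told apart. All differences below are between libraries. No replicate measures their spread, and intervals cover counting error only.

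EGR factors are zinc finger transcription factors that bind GC-rich sites in promoters and are switched on within minutes of many stimuli, growth factors and stress among them. SRF binds CArG boxes, and ELK1, ELK3 and ELK4 are ETS-family partners that sit beside it. Phosphorylation of these partners by ERK turns on immediate early genes such as EGR1 and FOS through proteins already present in the cell. NAB1 and NAB2 bind EGR1, EGR2 and EGR3 and repress their targets, and NAB2 is itself a reported EGR target. Doxorubicin, an anthracycline used against cancer and known for its toxicity to the heart, slips between DNA bases and poisons topoisomerase II.

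The libraries held 55156612 to 56875881 deposited counts, or about 13789153 to 14218970 read pairs when a pair is taken as worth 4 counts. Transcript models built by the authors' assembly, which are not annotated, took 10.7% to 11.7% of the counts. A gene passed the size rule when its CPM differed at least 2-fold, reached 5 CPM in 1 of the 2 libraries compared and had a 95% counting interval of the ratio that excluded 1. The 10 min library stood apart, since 14.4% to 17.1% of genes passed the rule in the comparisons that include it and 6.59% to 6.8% in those that do not. Of the 14 cardiomyocyte markers, 6 were above 1 CPM and 4 could be compared under the size rule, MYL2 among them at 27.7 to 37.9 CPM. PLN was at 0 in all libraries, and TNNT2, TNNI3, TNNC1, ACTN2, MYH6 and MYH7 were below 1 CPM. The summed level of the 14 cardiomyocyte markers was 97.8, 119.7, 199.5 and 131.0 CPM at 0, 10, 30 and 360 min, with NPPB, the gene of a natriuretic peptide, at 37.1, 56.3, 122.1 and 61.5 CPM. Summed markers of fibroblasts and matrix stood at 13331.5, 17525.2, 11077.1 and 11129.4 CPM at those times, with DCN and LUM at 0. The 6 endothelial markers summed to 4.54 to 11.7 CPM with KDR at 0, the 6 immune markers to 29.8 to 57.6 CPM with CD14 at 0, and the 5 epithelial markers to 464.9 to 516.7 CPM. The part of these shifts in the results below was not tested, and in a bulk sample fewer expressing cells and less RNA per cell cannot be told apart.

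EGR1 and EGR2 carried matches to the CArG box just upstream of their start sites, as did SRF. The upstream stretches of these 3 genes are printed here because they hold these matches. The sequences are the 250 bases before the RefSeq start on GRCh38.p14, written 5′ to 3′ on the gene's strand, with CArG boxes in capitals. They cover chr5:138465229-138465478 (plus strand) for EGR1, chr10:62816367-62816616 (minus strand) for EGR2 and chr6:43171019-43171268 (plus strand) for SRF.
EGR1: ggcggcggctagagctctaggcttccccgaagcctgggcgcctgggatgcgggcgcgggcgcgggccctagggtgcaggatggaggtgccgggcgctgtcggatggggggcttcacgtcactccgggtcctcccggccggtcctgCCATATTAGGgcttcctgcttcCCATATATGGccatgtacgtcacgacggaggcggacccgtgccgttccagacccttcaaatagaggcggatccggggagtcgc
EGR2: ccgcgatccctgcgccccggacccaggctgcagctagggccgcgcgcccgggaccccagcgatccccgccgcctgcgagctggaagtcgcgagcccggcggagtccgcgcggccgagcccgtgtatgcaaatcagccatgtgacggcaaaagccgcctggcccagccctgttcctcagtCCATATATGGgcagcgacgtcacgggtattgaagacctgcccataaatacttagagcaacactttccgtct
SRF: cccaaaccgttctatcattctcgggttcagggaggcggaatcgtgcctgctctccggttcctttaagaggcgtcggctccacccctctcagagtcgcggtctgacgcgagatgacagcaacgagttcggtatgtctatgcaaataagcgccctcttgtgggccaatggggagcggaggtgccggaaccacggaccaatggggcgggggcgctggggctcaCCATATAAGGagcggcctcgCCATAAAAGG
Within these stretches, the 2 boxes of EGR1 lay at -105 to -96 and -83 to -74 from the start, and the box of EGR2 at -71 to -62. Those of SRF itself lay at -30 to -21 and -10 to -1.

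RefSeq windows of 300 bases (250 before the start and 50 from it) were found for 8 of the 9 genes, all but EGR3. Where a gene had several windows, only the one nearest the start of its most counted transcript was used. Each window used was searched on both strands. A CArG box was held by 1.29% of all 35116 windows, and the windows used for NAB1, NAB2, ELK1, ELK3 and ELK4 held none. CCGGAA, a strict form of the ETS sites that ELK factors bind, occurred in SRF at -70 to -65 and at 2 places in ELK4. It was present in 17.2% of all windows. The shorter core GGAA was not searched, so a window without CCGGAA may still hold an ETS site. The printed EGR1 stretch, for instance, has ttcc (GGAA on the other strand) between its CArG boxes. The EGR consensus GCGNGGGCG occurred 4 times in NAB1, where the first pair overlapped, and once each in EGR1, in NAB2 at -62 to -54 and in SRF at -49 to -41. It was present in 9.43% of all windows. Of the 250 bases before the NAB2 start, only the first 30 were free of annotated exons, so the NAB2 match lay in an exon. Before the NAB1 start, the nearest stretch free of exons ran 98 bases from -111 and held none of the NAB1 matches. The motifs are letter matches in a fixed window, and no binding was measured.

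EGR1, a factor that ERK signalling switches on as an immediate early gene, had by far the largest swing in CPM of the 9 genes. The gene (ENSG00000120738, chromosome 5, 138465490 to 138469315, GRCh38) has 1 annotated transcript, EGR1-201, which held all counts of the locus. Its counts were 379, 4773, 23497 and 538 at 0, 10, 30 and 360 min, or 6.66, 85.9, 425.1 and 9.75 CPM. The level was already high at 10 min, higher again at 30 min and close to the untreated level at 360 min.

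At 10 min EGR1 was 12.9-fold above 0 min (95% counting interval 10.418 to 16.004). At 30 min it was 63.8-fold above 0 min (51.9 to 78.8) and 4.95-fold above 10 min (4.65 to 5.27). The 30 min ratio ranked 8 of 11533 genes from the top by annotated transcripts and 2 of 9762 when whole assembly loci were compared. EGR2 and EGR3 had smaller ratios at 30 against 0 min, but their wide counting intervals (7.33 to 235 and 4.77 to 159) contain that of EGR1. At 360 min EGR1 was 43.6-fold below 30 min (36.9 to 52.3) and 8.80-fold below 10 min (7.38 to 10.6). It stayed 1.46-fold above 0 min (1.11 to 1.91), which is short of the 2-fold rule.

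Scaled to transcript length, EGR1 passed every other gene of the group at 30 min. It stood at 2.12, 27.4, 135.5 and 3.11 CPM per kb at 0, 10, 30 and 360 min. Among all genes with counts its level ranked 11678 of 25111 at 0 min, 2698 of 26417 at 10 min, 474 of 25037 at 30 min and 10521 of 25037 at 360 min.

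EGR2 (ENSG00000122877, chromosome 10, 62811996 to 62919900), best known for its part in myelination and in lymphocytes, had the same order of libraries at a far lower level. It had 8, 60, 216 and 12 counts at 0, 10, 30 and 360 min, or 0.141, 1.08, 3.91 and 0.218 CPM. At 30 min EGR2 was 27.8-fold above 0 min (7.33 to 235) and 3.62-fold above 10 min (2.01 to 6.91). The 10 min value was 7.67-fold above 0 min (1.78 to 69.1), and the interval is wide because the 0 min library holds about 2 read pairs. At 360 min EGR2 was 18.0-fold below 30 min (5.83 to 89.8) and 4.96-fold below 10 min (1.40 to 26.7). EGR2-201 held 92.6% of the counts at 30 min and all of them in the other libraries. No library reached 5 CPM, so EGR2 was never compared under the size rule.

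EGR3 (ENSG00000179388, chromosome 8, 22687659 to 22693302), known for its role in muscle spindles and in T cells, was the lowest of the 3. It had 10, 28, 143 and 0 counts, or 0.176, 0.504, 2.59 and 0 CPM, at 0, 10, 30 and 360 min. At 30 min EGR3 was 14.7-fold above 0 min (4.77 to 159) and 5.14-fold above 10 min (2.27 to 13.8). The 10 min ratio to 0 min was 2.86 (0.682 to 35.3), and its interval includes 1. With the 360 min library set at a floor of 3 read pairs, EGR3 was 11.9-fold lower at 360 min than at 30 min. The lower limit of this fold by counting error was 9.2. EGR3-201 held 99.3% of the counts at 30 min. With the same floor, EGR3 was 2.31-fold lower at 360 min than at 10 min, with a lower limit of 1.43. For EGR2 and EGR3 no fold is given for 360 against 0 min, since both libraries lie at or under the floor of 12 counts.

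All 3 EGR genes thus had their highest value in the 30 min library and their second highest at 10 min. EGR4, the remaining gene of the family, had 0 counts in all 4 libraries, where the floor of 3 read pairs stands at 0.211 to 0.218 CPM.

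**Figure D1:**
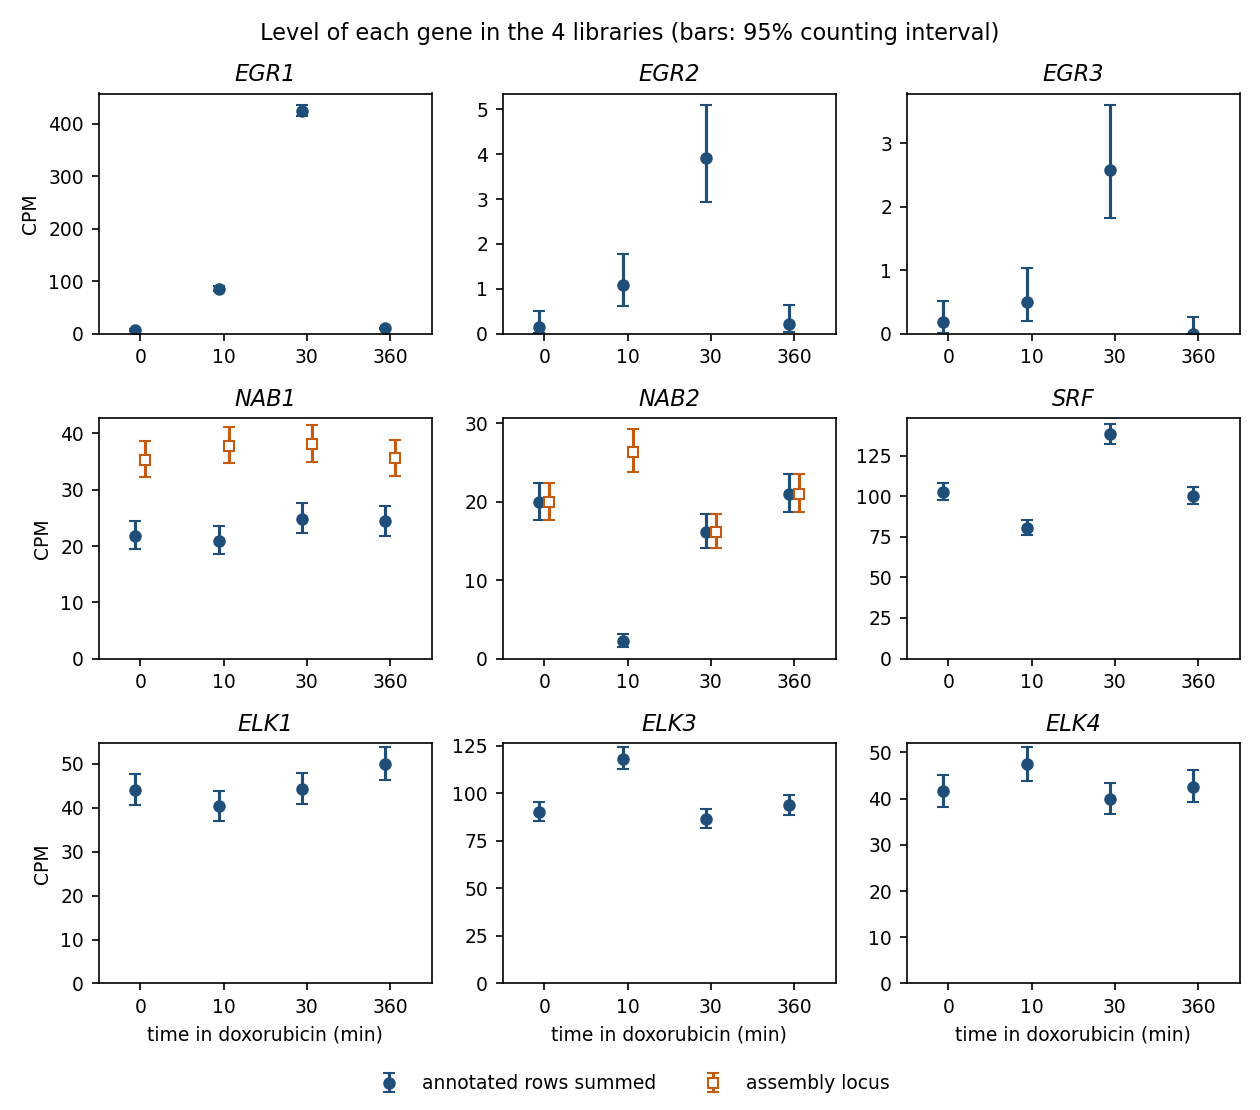
Level of each of the 9 genes in CPM (vertical axes, each from 0 with its own range) against time in doxorubicin in min. Blue points are summed annotated transcripts, orange squares are the whole assembly locus of NAB1 and NAB2, bars are 95% counting intervals, and each point is 1 library. EGR1 is at 425.1 CPM at 30 min and 6.66 CPM at 0 min, and the blue and orange points of NAB2 part at 10 min only (2.18 and 26.4 CPM).

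NAB1 (ENSG00000138386, chromosome 2, 190646746 to 190692766), a corepressor of EGR factors, kept nearly the same level in all libraries. Its annotated transcripts summed to 21.8, 21.0, 24.9 and 24.4 CPM at 0, 10, 30 and 360 min. The ratio to 0 min was 0.962 at 10 min (0.816 to 1.13), 1.14 at 30 min (0.976 to 1.34) and 1.12 at 360 min (0.955 to 1.31), each interval including 1. With the 5 assembled models that share its locus, the level was 35.4, 37.8, 38.1 and 35.6 CPM, and the locus ratios of 1.07, 1.08 and 1.01 had intervals that include 1 too.

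Within NAB1 the transcripts did not all keep their shares. NAB1-201, the longest annotated transcript with 4358 bases, held 16.3, 16.4, 15.4 and 17.2 CPM at 0, 10, 30 and 360 min. NAB1-203, with 2472 bases and a coding length of 1458, held 2.83, 2.27, 5.99 and 4.22 CPM. It was 2.12-fold higher at 30 min than at 0 min (1.45 to 3.20), while NAB1-202 held 1.44 to 2.35 CPM in the 4 libraries. Assembled model 7 of the locus held 8.28, 9.17, 4.79 and 2.67 CPM at these times, so the estimated split among models shifted while the locus total stayed within counting error.

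NAB2 (ENSG00000166886, chromosome 12, 57088894 to 57095476), the corepressor that EGR factors are reported to induce, gave opposite answers by annotated transcripts and by whole locus at 10 min. The annotated transcripts summed to 1137, 121, 894 and 1159 counts, or 19.99, 2.18, 16.2 and 21.0 CPM, at 0, 10, 30 and 360 min. The whole locus had 1137, 1467, 894 and 1159 counts, or 19.99, 26.4, 16.2 and 21.0 CPM. The gap at 10 min is an assembled transcript model, model 4, with 1346 counts (24.2 CPM, 91.8% of the locus) in that library and 0 in the other 3.

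By annotated transcripts NAB2 was 9.19-fold below 0 min at 10 min (6.34 to 14.0), and by locus it was 1.32-fold above it (1.13 to 1.55). The main transcript NAB2-201, with a coding length of 1575, had 959, 1, 862 and 1065 counts at 0, 10, 30 and 360 min. NAB2-202, with a coding length of 1383, had 111, 87, 0 and 0 counts, and the short NAB2-203 stood at 0.756, 0.324, 0.416 and 1.47 CPM. The counts missing from annotated rows at 10 min thus stood in another row of the same locus, whose total was not lower.

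At the later times the annotated and the locus values of NAB2 were identical. NAB2 stood at 0.809 of its 0 min level at 30 min (0.678 to 0.970), the time of the EGR1 maximum, and at 1.05 of it at 360 min (0.891 to 1.24). The 360 min level was 1.30-fold that of 30 min (1.09 to 1.55). By locus the 30 min level was 0.613 of the 10 min level (0.518 to 0.727), and none of these locus differences reached 2-fold. About 2.29% of the exon bases of NAB2 overlap STAT6 on the other strand, and the sources used here do not say whether counting used strand.

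**Figure D2:**
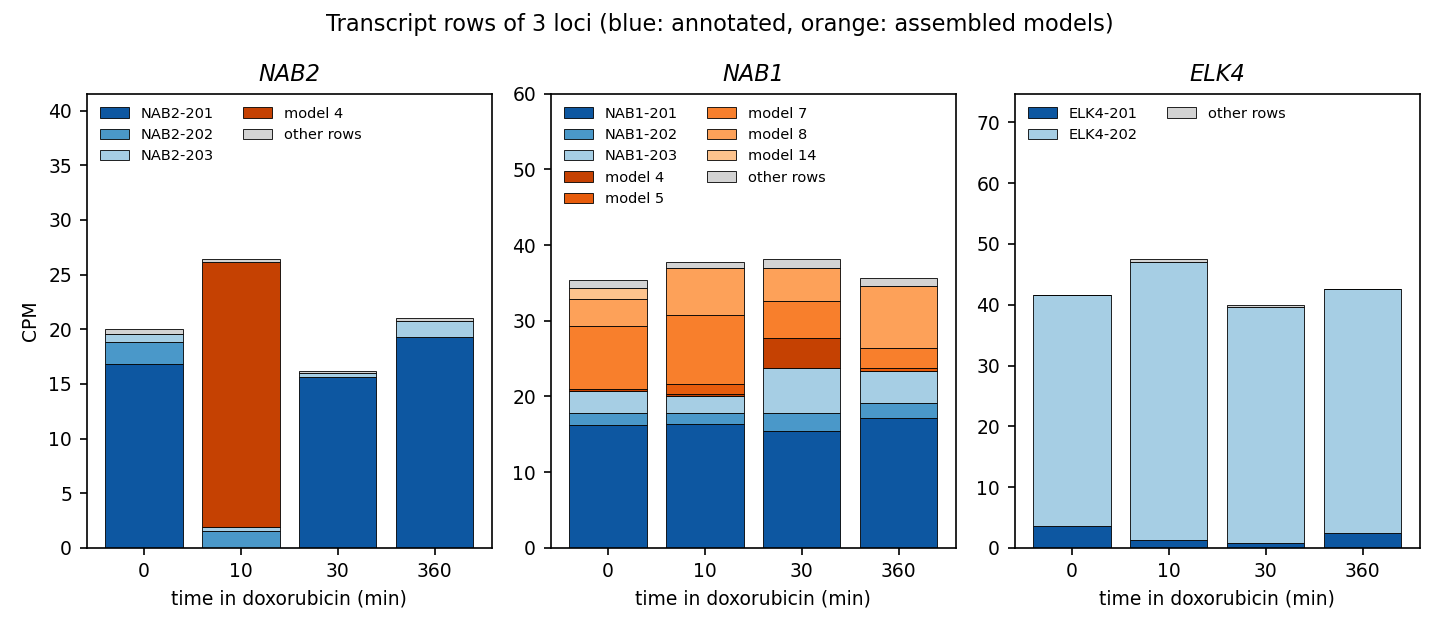
Stacked CPM of transcript rows (vertical axis) at 0, 10, 30 and 360 min in doxorubicin for the loci of NAB2, NAB1 and ELK4, with annotated transcripts in blue, assembled models in orange and rows under 1 CPM in grey. At 10 min the assembled model 4 holds 24.2 of the 26.4 CPM of the NAB2 locus, and the height of the NAB1 stack stays between 35.4 and 38.1 CPM.

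SRF (ENSG00000112658, chromosome 6, 43171299 to 43181507), the factor that recruits the ELK proteins to CArG boxes, moved in a narrow range. Its single counted transcript, SRF-201, stood at 102.6, 80.6, 138.1 and 100.2 CPM at 0, 10, 30 and 360 min. The 30 min library was the highest and the 10 min library the lowest, and the 0 and 360 min libraries were level. SRF was 1.35-fold above 0 min at 30 min (1.26 to 1.44) and at 0.786 of it at 10 min (0.726 to 0.850). The largest ratio was 1.71 for 30 against 10 min (1.59 to 1.85), and at 360 min SRF was 0.977 of the 0 min level (0.907 to 1.05). None of these ratios reached 2-fold, though those at 10 and 30 min lay outside counting error. Without the 10 min library the range of SRF was 100.2 to 138.1 CPM.

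The ELK genes code for the ETS partners of SRF and were steadier still. ELK1 (ENSG00000126767, chromosome X, 47635521 to 47650604), the best-studied ERK substrate among them, stood at 44.1, 40.3, 44.3 and 49.97 CPM at 0, 10, 30 and 360 min. Its ratio to 0 min was 0.914 at 10 min (0.814 to 1.03), 1.00 at 30 min (0.897 to 1.12) and 1.13 at 360 min (1.02 to 1.26). ELK1-201 held 66.9% of the locus at 10 min and 75.8% at 0 min, with most of the rest in ELK1-203, and both have a coding length of 1284.

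ELK3 (ENSG00000111145, chromosome 12, 96194382 to 96269835), which represses its targets until it is phosphorylated, stood at 90.2, 118.4, 86.6 and 93.8 CPM. ELK3-201 held 97.3% to 97.8% of it, and ELK3-202 stood at 1.14 to 1.61 CPM. Only the 10 min library was set apart, 1.31-fold above 0 min (1.22 to 1.41), and the ratios of 0.960 at 30 min and 1.04 at 360 min had intervals that include 1. ELK4 (ENSG00000158711, chromosome 1, 205597556 to 205631962), a further ternary complex factor, stood at 41.6, 47.5, 39.9 and 42.6 CPM. It was 1.14-fold above 0 min at 10 min (1.02 to 1.28), and its ratios of 0.960 and 1.03 at 30 and 360 min had intervals that include 1.

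A minor transcript of ELK4 was lower at the early times. ELK4-201, with 2118 bases against 10239 for ELK4-202, held 3.59, 1.24, 0.850 and 2.39 CPM at 0, 10, 30 and 360 min. Its ratio to 0 min was 0.346 at 10 min (0.185 to 0.600), 0.237 at 30 min (0.117 to 0.460) and 0.667 at 360 min (0.417 to 1.05). ELK4-202 held 38.0, 45.8, 38.7 and 40.2 CPM, so the gene's total barely moved. ELK4-201 never reached 5 CPM, and it was outside the size rule.

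**Figure D3:**
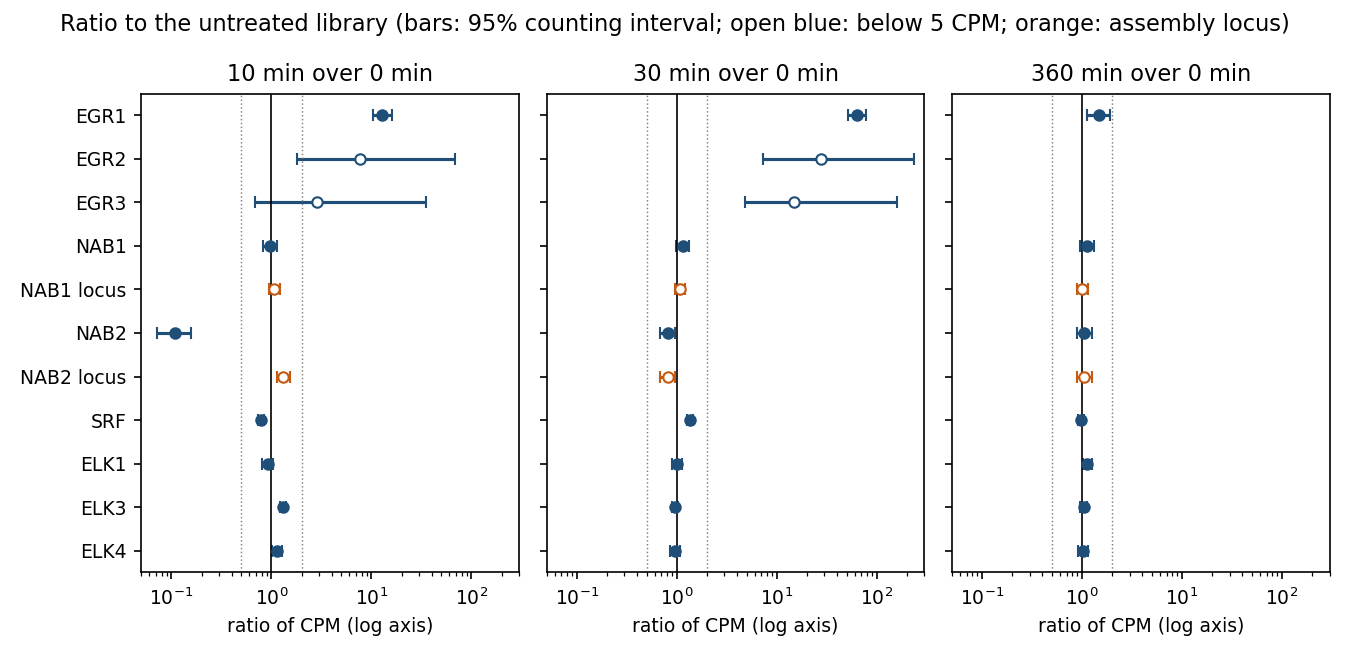
Ratio of CPM to the untreated library at 10, 30 and 360 min (log axes) for the 9 genes and the assembly loci of NAB1 and NAB2. Bars are 95% counting intervals, open blue points are genes below 5 CPM, orange points are loci, dotted lines mark 2-fold, and EGR2 and EGR3 are left out at 360 min because both libraries lie at or under the floor. EGR1 stands at 12.9, 63.8 and 1.46 from left to right, and SRF and the ELK genes lie between 0.786 and 1.35 at all 3 times.

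Under the size rule, 7 of the 9 genes could be compared, since EGR2 and EGR3 stayed below 5 CPM. At 10 against 0 min EGR1 was higher and NAB2 lower by annotated transcripts, beside 14.5% of 11892 genes past the rule in either direction. By locus EGR1 alone passed, beside 10.6% of 10053 loci. At 30 against 0 min EGR1 alone passed by either count, beside 6.8% of 11533 genes and 3.0% of 9762 loci. At 360 against 0 min none of the 7 passed by either count, beside 6.59% of 11511 genes and 1.98% of 9718 loci.

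Between treated libraries, EGR1 and NAB2 were higher at 30 than at 10 min, beside 14.4% of genes, and by locus EGR1 alone was, beside 10.8% of loci. At 360 against 10 min NAB2 was higher and EGR1 lower, beside 17.1% of genes, and by locus EGR1 alone passed, beside 13.7% of loci. At 360 against 30 min EGR1 alone was lower by either count, beside 6.75% of genes and 2.61% of loci. A count of 1 or 2 among 7 genes says little beside these shares, and EGR1 was set apart by the size of its ratio. The comparisons with 0 min all share that library. The median log2 ratio of the 7 genes to 0 min was -0.06 at 10 min, 0.00 at 30 min and 0.07 at 360 min, beside -0.04, -0.01 and 0.01 over all genes compared.

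Ranked by CPM per kb, ELK3 and SRF led the untreated library with 24.6 and 24.4, followed by ELK1 with 17.8, NAB2 with 8.76, NAB1 with 7.24, ELK4 with 5.40, EGR1 with 2.12, EGR2 with 0.0474 and EGR3 with 0.0405. ELK3 and SRF, NAB2 and NAB1, and EGR2 and EGR3 were neighbours whose counting intervals overlapped. At 10 min EGR1 had moved to the second place behind ELK3 (27.4 against 31.4 CPM per kb), and at 30 min it led with 135.5, ahead of SRF with 32.9. At 360 min the order was that of the untreated library, with EGR1 back in the seventh place at 3.11 CPM per kb. EGR1 was thus the gene whose place changed most.

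The RAS-RAF-MEK-ERK-RSK chain phosphorylates the ELK proteins. Of its 23 genes, 1 of 23 compared was higher and 1 lower at 10 against 0 min, beside 14.5% of all genes in either direction. At 30 and at 360 against 0 min 1 of 22 was lower, beside 6.8% and 6.59% of all genes in either direction. By locus none of 19 passed at 10, 30 or 360 min, beside 10.6%, 3.0% and 1.98% of all loci. The gene lower at all 3 times was BRAF, a kinase of the RAF step, with 5.49, 2.97 and 2.48 CPM at 10, 30 and 360 min and 15.2 CPM at 0 min. Its locus ratios were 1.03, 0.958 and 0.972, so the call holds for annotated transcripts only. The gene higher at 10 min was RPS6KA2, a kinase of the RSK family, with 36.9 CPM at 10 min and 16.8 CPM at 0 min, and it had no matched locus. The median log2 ratio of the chain was -0.02, 0.00 and -0.09 at 10, 30 and 360 min.

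The cofactors and inhibitors of SRF gave no call against 0 min among 4 compared genes of 6. The shares of all genes called were 14.5%, 6.8% and 6.59% at 10, 30 and 360 min, and 4 genes say little beside them. MRTFB, a coactivator of SRF, came nearest with 25.6 CPM at 10 min and 51.1 CPM at 0 min, a ratio of 0.502 (0.441 to 0.570), and was named after its value was seen. Of 4 other zinc finger genes of GC-rich sites, 2 could be compared. SP1, a general activator, was lower by annotated transcripts at 10 and 360 min, beside 6.85% and 3.34% of all genes. It had 5.50 and 4.82 CPM at those times and 17.4 CPM at 0 min. Its locus ratios ran the other way, 3.60 and 3.74, and the level of SP1 is therefore uncertain.

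Of 20 immediate early genes regulated by SRF with ELK factors, 3 of 15 compared were higher at 10 against 0 min, 6 of 15 at 30 min and none of 14 at 360 min, where 1 was lower. The shares of all genes that were higher were 7.69%, 3.55% and 3.26%, and of all genes that were lower at 360 min 3.34%. FOS, a subunit of the AP-1 factor, had 0.404, 8.58, 24.2 and 0.381 CPM at 0, 10, 30 and 360 min, and was 21.2-fold above 0 min at 10 min (9.05 to 56.4) and 59.7-fold at 30 min (26.0 to 157). As for EGR1, its highest library was 30 min and its second highest 10 min. ZFP36, which destabilises mRNAs with AU-rich elements, was highest at 10 min, with 6.35, 23.4, 13.4 and 9.21 CPM in time order. The phosphatase genes DUSP5 and DUSP1, which act on MAP kinases, were 3.68-fold (3.21 to 4.22) and 3.65-fold (3.48 to 3.84) above 0 min at 30 min.

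The other calls in this list were JUNB at 10 and 30 min (2.29-fold and 2.59-fold above 0 min), ATF3 at 30 min (3.58-fold above it) and MAFF, the lower gene at 360 min with 9.45 CPM against 20.4 CPM at 0 min. Not every gene took part. IER2 stood at 27.9, 33.3 and 35.8 CPM at 10, 30 and 360 min and 42.6 CPM at 0 min, and PHLDA1 was highest at 10 min, at 264.6 CPM against 156.7 CPM at 0 min, without reaching 2-fold. At 360 against 30 min, 6 of 15 genes were lower, beside 3.49% of all genes. The median log2 ratio of the list to 0 min was 0.46, 0.88 and 0.23 at 10, 30 and 360 min. By locus, 4 of 14 genes were higher at 10 min, beside 5.97% of all loci, and 8 of 14 at 30 min, beside 1.64%.

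SRF targets that work through MRTF coactivators are mostly genes of the actin cytoskeleton. Of 22 genes, 1 of 21 compared was higher at 10 min, 2 of 20 at 30 min and none of 20 at 360 min, beside 7.69%, 3.55% and 3.26% of all genes, and none was lower against 0 min. TPM2, a tropomyosin, was the gene at 10 min, with 49.0 CPM there and 20.5 CPM at 0 min, a ratio of 2.39 (2.08 to 2.76). CCN1 and CCN2, secreted matricellular proteins, were 2.42-fold (2.36 to 2.47) and 2.50-fold (2.36 to 2.65) above 0 min at 30 min. CCN1 stood at 736.9, 1383, 1782 and 1005 CPM at 0, 10, 30 and 360 min. The list's median log2 ratio was 0.07, 0.13 and 0.04.

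Of 25 reported EGR1 targets, 1 of 22 was higher and 1 lower at 10 against 0 min, 3 of 21 were higher and 1 lower at 30 min, and 1 of 22 was higher at 360 min. The shares of all genes were 7.69%, 3.55% and 3.26% higher at 10, 30 and 360 min, and 6.85% and 3.25% lower at 10 and 30 min. By locus 1 of 19 was higher at 10 min, 2 of 18 were higher and 1 lower at 30 min, and 1 of 19 was higher at 360 min. The shares of all loci in either direction were 10.6%, 3.0% and 1.98% at these times. ICAM1, an adhesion molecule, was 3.15-fold above 0 min at 10 min (2.17 to 4.67) and 2.01-fold at 360 min (1.34 to 3.05), with 2.67, 8.42, 4.21 and 5.37 CPM in time order. The gene lower at 10 min was NAB2, whose locus did not pass. Among the higher genes at 30 min were GADD45A, a DNA damage-inducible gene, with 154.6 CPM against 61.0 CPM at 0 min, and VEGFA, an angiogenic growth factor, with 138.0 against 58.0 CPM. PTGES, a prostaglandin E synthase, was lower at 30 min, with 5.77 CPM against 12.6 CPM at 0 min. The median log2 ratio of the list was 0.42, 0.17 and 0.14 at 10, 30 and 360 min, the first of these in the library that stood apart.

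**Figure D4:**
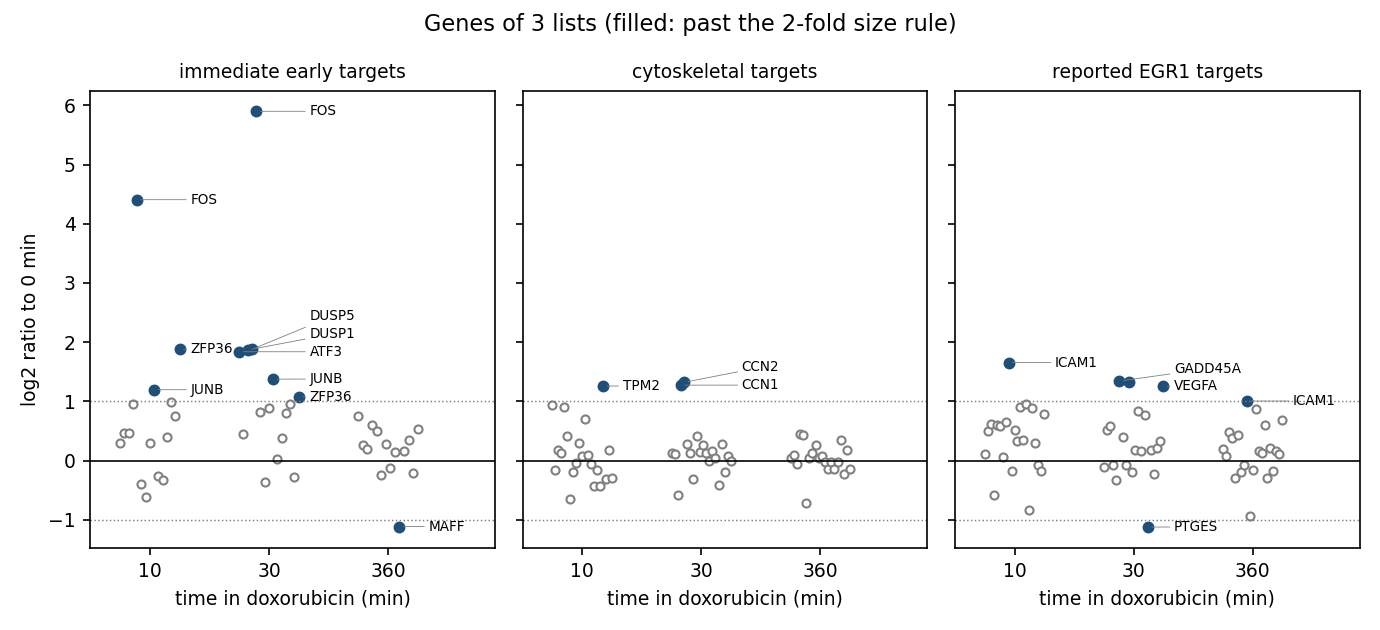
Log2 ratio of CPM to the 0 min library (vertical axis) at 10, 30 and 360 min in doxorubicin for genes of 3 lists, each point a gene that reached 5 CPM in 1 of the 2 libraries, with NAB2 left out of the reported EGR1 targets. Filled points passed the size rule and all but 1 of them carry a name, dotted lines mark 2-fold, and points are spread sideways in alphabetical order. FOS, 21.2-fold and 59.7-fold above 0 min at 10 and 30 min, lies far above the rest, and MAFF is the filled point below 0 at 360 min.

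Among 10460 genes with at least 10 CPM in a library, the 5 whose 3 log2 ratios to 0 min over the 4 libraries lay nearest to those of EGR1 were ATG2A, DNAJC25-GNG10, ZNF469, FOS and HSPA1A. Their Euclidean distances were 1.20, 1.67, 1.83, 1.86 and 1.87 on the log2(CPM + 1) scale. ATG2A and ZNF469 had locus ratios of only 1.25 and 0.617 at 30 against 0 min, while that of FOS was 59.7. Compared by locus over 8956 genes, FOS was the nearest, at 1.86, and the next, MIR3936HG, lay at 3.20, followed by SPRY4, KLF16 and SNX22.

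For NAB2 by annotated transcripts, the nearest genes were EBI3, ZC3H7B, DUXAP8, SMG6 and CDCA2, at distances of 0.268 to 0.539. They were low at 10 min only, as EBI3 was with 19.9, 2.48, 16.3 and 17.7 CPM at 0, 10, 30 and 360 min. At 10 against 0 min the locus ratios were 1.24 for EBI3, 0.976 for ZC3H7B, 0.717 for SMG6 and 0.459 for CDCA2. DUXAP8 had no matched locus. Of 634 genes called lower at 10 min with a matched locus, 65.3% were called lower by locus too. By locus NAB2 lay nearest to GLIS1, TGFBR2, DDX17, GRINA and DNAJB9, at 0.0545 to 0.0810. For SRF the nearest genes were ZNF701, RHPN2, EML1, ADPRS and STK40, at 0.0480 to 0.115, and RHPN2, EML1 and ADPRS were among the 5 nearest by locus as well.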

How the data were processed

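Poly(A) RNA of AC16 cells was sequenced at 4 times with 1 library each. The deposited gene and transcript tables hold estimated counts. The submitters' processing notes name HISAT2 and DESeq2 without versions, and the GRCh38 build. How reads were counted, with which annotation release and whether by strand, is not stated. Deposited values are whole numbers, so rounding changed none. The tables held 0 columns of other samples.

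Annotated rows were summed per gene by GENCODE 29 and divided by each library's total (rows absent from that release held 0.0702% to 0.0841% of counts). The gene table's locus was found by identifier or by exactly equal counts (at least 20) for 40765 of 57891 genes. Of 11832 low values from 1 to 24, 35.5% were multiples of 4 (25% if even), so a read pair was taken as 4 counts. No molecular identifiers are recorded. Ratios carry 95% exact Clopper-Pearson (conditional binomial) intervals, and 0 counts entered at a floor of 12. With 1 library per time no test of conditions and no p-value was possible. The size rule was tested on simulated data. Those data held counting error only, without spread between libraries or shifts among transcript models, so the rule's error in real libraries was not measured. Motifs were searched in RefSeq promoters of GRCh38.p14.

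Each gene of the group, with its annotated transcripts of at least 1 CPM, is named, with up to 4 genes a list by size of log2 ratio among those past the rule and the 5 genes nearest in pattern to EGR1, NAB2 and SRF. The members and lists were chosen with earlier results of these data known, and further list genes were named after their values were seen. KLF10 and FHL2 are in 2 lists each. Single values of some list genes are not reported here. Alternatives were TMM (edgeR 4.0.16, R 4.3.3) and median-of-ratios scaling, counts divided by 2 or undivided, the assembly locus, other filters and other folds. Python 3.11.15, numpy 2.4.6, pandas 2.3.3, SciPy 1.17.1 and matplotlib 3.10.9 were used.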

Additional observations from a re-analysis of the deposited data

Results flagged for a closer look

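Some assembled transcript models of the NAB loci, which the comparisons of annotated transcripts do not use, held more counts in treated libraries than in the untreated one. Assembled model 4 of NAB2 held 24.2 CPM at 10 min and 0 at 0 min. For NAB1, model 4 held 4.00 CPM at 30 min and 0.281 CPM at 0 min, and model 5 held 1.31 CPM at 10 min and 0 at 0 min. Model 8 of NAB1 held 6.22 CPM at 10 min and 8.25 CPM at 360 min, against 3.67 CPM at 0 min. Other models of NAB1 were lower, with model 7 at 4.79 CPM at 30 min and 2.67 CPM at 360 min against 8.28 CPM at 0 min, and model 14 at 0 in all treated libraries against 1.35 CPM at 0 min. All assembled models of NAB1 together held 16.9, 13.2 and 11.2 CPM at 10, 30 and 360 min, against 13.6 CPM at 0 min. These models have no annotation in the tables used here, and what transcript they stand for was not tested.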

How the results depend on the processing

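All 52 ratios given for the 9 genes kept their direction and call under TMM factors and median-of-ratios factors. Counts divided by 2 and undivided counts cannot change a ratio and only narrow its interval. The calls of the 9 genes were the same with them, but they are no check of direction. By assembly locus 47 stayed within the counting interval of the ratio by annotated transcripts. NAB1 at 10 against 0 min was among them, though it crossed 1 (1.07 by locus, 0.962 by annotated transcripts). NAB1 moved outside that interval at 30 against 10 min, to 1.01, and at 360 against 10 min, to 0.941. NAB2 reversed in 3 comparisons, to 1.32 (10 against 0 min), 0.613 (30 against 10 min) and 0.796 (360 against 10 min). Those values contain the assembled model that holds counts at 10 min only.

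In the order 10, 30 and 360 against 0 min, 30 and 360 against 10 min and 360 against 30 min, 1730, 784, 759, 1714, 2041 and 776 genes passed the size rule. By locus 1068, 293, 192, 1090, 1373 and 254 did. A minimum of 1 CPM gave 2961, 1471, 1350, 2881, 3348 and 1405, and no minimum gave 3599, 1925, 1726, 3483, 4000 and 1812. A 1.5-fold rule gave 3986, 1836, 1578, 3960, 4508 and 1787, and a 3-fold rule gave 587, 331, 323, 609, 755 and 338. At 10 against 0 min 52.9% of calls were higher, and 49.7% with TMM factors, which shifted all genes by 0.03 on the log2 scale.

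Of the 9 genes, 2, 1, 0, 2, 2 and 1 passed in that order. By locus the count was 1 at 10 against 0 min, at 30 against 10 min and at 360 against 10 min. At a minimum of 1 CPM it was 3, 3, 0, 4, 3 and 3 in the same order, and with no minimum 3, 3, 0, 4, 4 and 3, as EGR2 and EGR3 entered. The gene counts given above for these filters were out of 14993 to 15611 genes compared at a minimum of 1 CPM and 27947 to 28948 with none. With protein-coding transcripts only, 7 of 9 genes kept their place in the order per length at 0 and at 360 min, and 9 of 9 at 10 and 30 min. Of the 5 nearest genes, 3 were shared for EGR1 and 3 for NAB2 with a pseudocount of 0.1 CPM. By locus, an alternative added after seeing the data, 1 was shared for EGR1, 0 for NAB2 and 3 for SRF. No paired analysis was possible because each time has 1 library. Depth limits EGR2 and EGR3, which had at most 216 counts in a library.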
